A study of Bos taurus with 44 samples.

Results

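The genes described here sense bacteria or carry the signal onwards: the receptors TLR2, TLR4, CD14 and NOD2, and the NF-kB subunits NFKB1 and NFKB2. They are the 6 of 141 named bovine genes on the array whose spots carry exactly 1 of these symbols in the platform annotation. TLR2 and TLR4 sit in the membrane and recognise bacterial lipoproteins and, together with CD14, lipopolysaccharide. NOD2 recognises a fragment of the bacterial cell wall inside the cell. All these routes can release NF-kB, which switches on genes of inflammation. NFKB1 and NFKB2 encode the precursors of the p50 and p52 subunits. In blood mononuclear cells, CD14 and TLR4 are best known from monocytes.

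RNA was taken from blood mononuclear cells (lymphocytes and monocytes, purified on Percoll) of female Canadian Holstein cows 6 days after immunization with antigens chosen to raise antibody and cell-mediated responses, with no further treatment of the cells. The labels class each cow by its antibody response (high-Ab, low-Ab) or its cell-mediated response (high-DTH, low-DTH) and give no ages. On each two-colour array, amplified RNA of 1 cow met an RNA standard made from mononuclear cells too, one in the dye Alexa647 and the other in Alexa555, and the dyes were swapped between arrays. The 44 arrays, 3 to 5 per cow, came from 11 cows. Same-numbered cows of different groups were counted as different animals, since the labels give no animal identities. The shared cow was labelled high for both traits, and the others were high-Ab cows 2 and 3, high-DTH cows 2 and 3, low-Ab cows 1 to 3 and low-DTH cows 1 to 3. Each trait thus had 3 high cows, the shared cow among them, against 3 low cows. All groups share the immunization, so no value of an unimmunized cow enters. In bulk RNA such as this, fewer cells of a type and less RNA per cell cannot be told apart.

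Each value is a deposited log ratio, read as log2, with 8 spots per gene averaged and then the arrays of a cow averaged within and over the dyes. A value of 0 means the level of the standard, if the ratio runs cow over standard, which is likely but not stated. All directions would swap together otherwise. There are 3 odd arrays, namely 1 and 2 in low-Ab cow 1 and 3 in low-DTH cow 3, which correlated below 0 on average with the arrays of other cows (mean r from -0.23 to -0.20, against 0.05 or more for the other 41 arrays). Their direction is therefore unsettled, and values are also given with their signs turned. Spot intensities were not analysed here, so signal over background is unknown and levels of different genes cannot be ranked. The 11 cows limit the precision.

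TLR2 lay furthest from the standard among the 6 genes, at -0.45 ± 0.24 (SD, n = 11 cows), which is 0.734 of the standard on the linear scale. The ratio was below 0 in 10 of 11 cows and on 38 of 44 arrays, and its mean had rank 5 from the lowest among the 141 genes, or rank 7 with the 3 odd arrays turned. By group, TLR2 was -0.61 in the shared cow, -0.69 and -0.47 in high-Ab cows 2 and 3, and -0.52 and -0.24 in high-DTH cows 2 and 3. In the low-Ab cows 1 to 3 it was -0.04, -0.55 and -0.56. In the low-DTH cows 1 to 3 it was -0.58, 0.01 and -0.66. The values near 0 were thus those of low-Ab cow 1 and low-DTH cow 2, and every group had at least 1 cow below -0.5. With the 3 odd arrays turned, the mean was -0.46 ± 0.23 and 41 of 44 arrays were below 0. Low-Ab cow 1 moved to -0.19, and low-DTH cow 2 has no odd array.

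The array values show where these cows differ. Low-DTH cow 2 had TLR2 at -0.38 and -0.45 on arrays 1 and 2 but at 0.41 and 0.48 on arrays 3 and 4. High-DTH cow 3 had -0.40, -0.47 and -0.40 on arrays 1, 2 and 4 but 0.31 on array 3. Apart from the 3 odd arrays, these 3 arrays were the ones above 0 for TLR2. Their agreement with other cows over all spots was the lowest among the arrays that are not odd, with a mean r of 0.05 for both arrays of low-DTH cow 2 and 0.08 for that of high-DTH cow 3. A cow value averages its arrays, so these arrays enter it directly. In low-DTH cow 2, TLR2 was -0.42 on arrays 1 and 2 alone and 0.45 on arrays 3 and 4 alone. What lies behind the difference between the arrays was not tested.

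**Figure D1:**
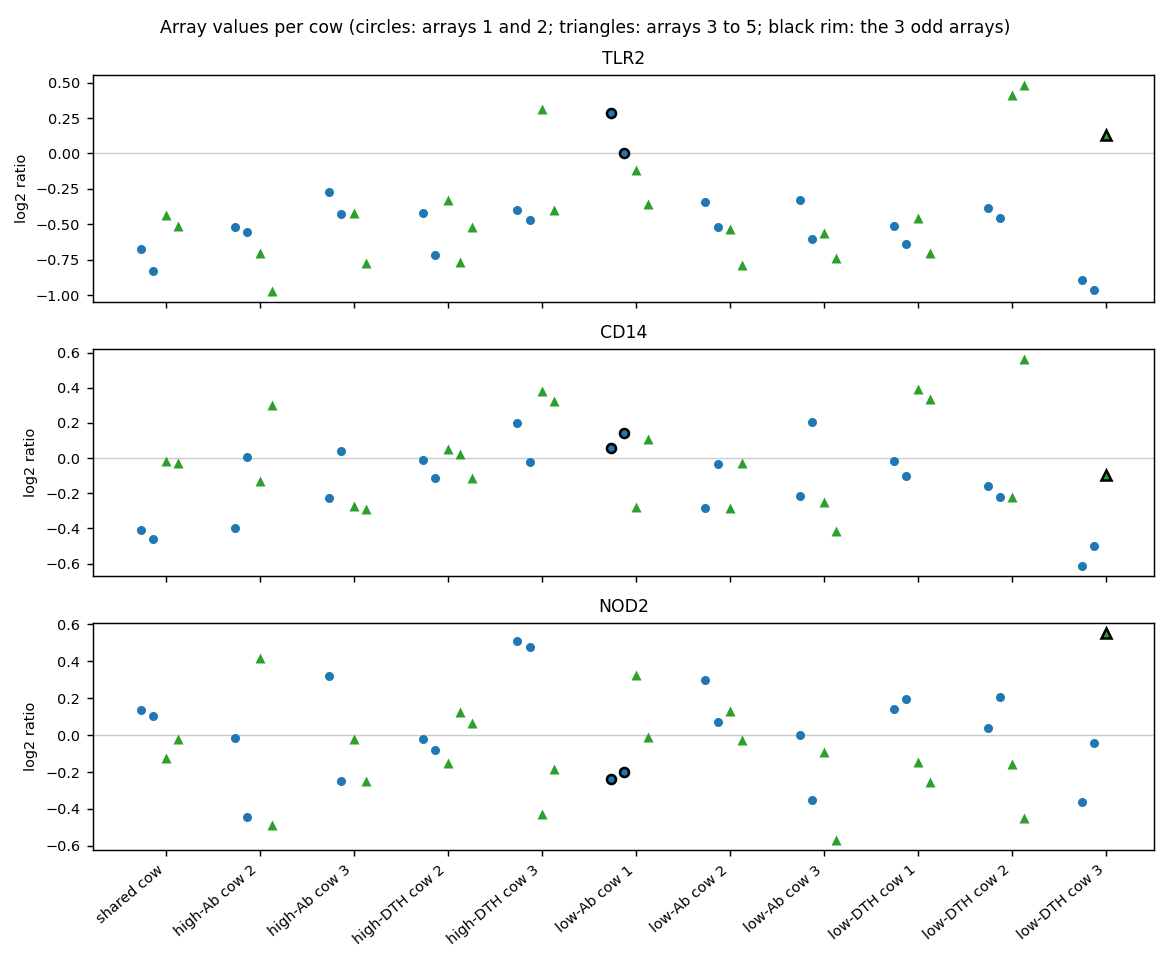
Log2 ratio of each array (y axis) of TLR2, CD14 and NOD2 by cow (x axis), with arrays 1 and 2 as circles, arrays 3 to 5 as triangles and the 3 odd arrays rimmed in black. For TLR2, 6 of 44 arrays lie above 0, among them arrays 3 and 4 of low-DTH cow 2 at 0.41 and 0.48, while NOD2 lies on both sides of 0 within most cows.

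The other receptors lay closer to the standard. TLR4 was -0.11 ± 0.10 (SD, n = 11 cows), below 0 in 10 of 11 cows and on 31 of 44 arrays. It was -0.02 in the shared cow, -0.25 and -0.19 in high-Ab cows 2 and 3, and -0.05 and 0.02 in high-DTH cows 2 and 3. The low-Ab cows had 0.00, -0.16 and -0.07, and the low-DTH cows -0.12, -0.14 and -0.26. All 3 high-DTH cows were therefore above all 3 low-DTH cows, whereas the Ab groups overlapped. CD14, the co-receptor that hands lipopolysaccharide to TLR4, was -0.08 ± 0.19, with 8 of 11 cows below 0. It was -0.23 in the shared cow, -0.05 and -0.19 in high-Ab cows 2 and 3, -0.02 and 0.22 in high-DTH cows 2 and 3, 0.01, -0.16 and -0.17 in low-Ab cows 1 to 3, and 0.15, -0.01 and -0.45 in low-DTH cows 1 to 3. The DTH groups thus held both extremes of CD14. Low-DTH cow 3 was the lowest and high-DTH cow 3 the highest for CD14, also with the odd arrays turned. They were the ends for TLR4 too as deposited, but with those arrays turned the lowest was high-Ab cow 2 at -0.25 and the highest low-Ab cow 1 at 0.03.

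NOD2, the receptor inside the cell, was -0.04 ± 0.10 (SD, n = 11 cows), with 8 cows below 0. It was 0.02 in the shared cow, -0.13 and -0.05 in high-Ab cows 2 and 3, -0.03 and 0.09 in high-DTH cows 2 and 3, -0.03, 0.12 and -0.25 in low-Ab cows 1 to 3, and -0.02, -0.09 and -0.05 in low-DTH cows 1 to 3. Turning the odd arrays took low-Ab cow 1 to 0.19 and low-DTH cow 3 to -0.33, which became the highest and lowest cows.

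Of the subunits, NFKB1 was -0.11 ± 0.10 (SD, n = 11 cows), below 0 in 10 cows and on 35 of 44 arrays, and low-DTH cow 2 at 0.07 was the exception. It was -0.11 in the shared cow, -0.22 and -0.01 in high-Ab cows 2 and 3, -0.09 and -0.14 in high-DTH cows 2 and 3, -0.01, -0.20 and -0.25 in low-Ab cows 1 to 3, and -0.08 and -0.12 in low-DTH cows 1 and 3. NFKB2 was 0.04 ± 0.07, with 5 cows below 0, and spanned only -0.07 in low-DTH cow 2 to 0.16 in low-Ab cow 3. TLR2, TLR4 and NFKB1 were among 9 of 141 genes below 0 in 10 or more cows. There were 12 such genes with the odd arrays turned, and TLR4, below 0 in 9 cows, was no longer one. The bacterial gene vapA, set aside as a control, was at 0.03 ± 0.09, so the means of CD14, NOD2 and NFKB2 were no further from 0 than its SD. With the odd arrays turned its SD was 0.07, and CD14 at -0.09 lay further from 0 than that, while NOD2 and NFKB2 did not. That SD is a spread of single cows, not the error of a mean over 11 cows, and vapA has 16 spots against 8 per member. The comparison is thus a description only.

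**Figure D2:**
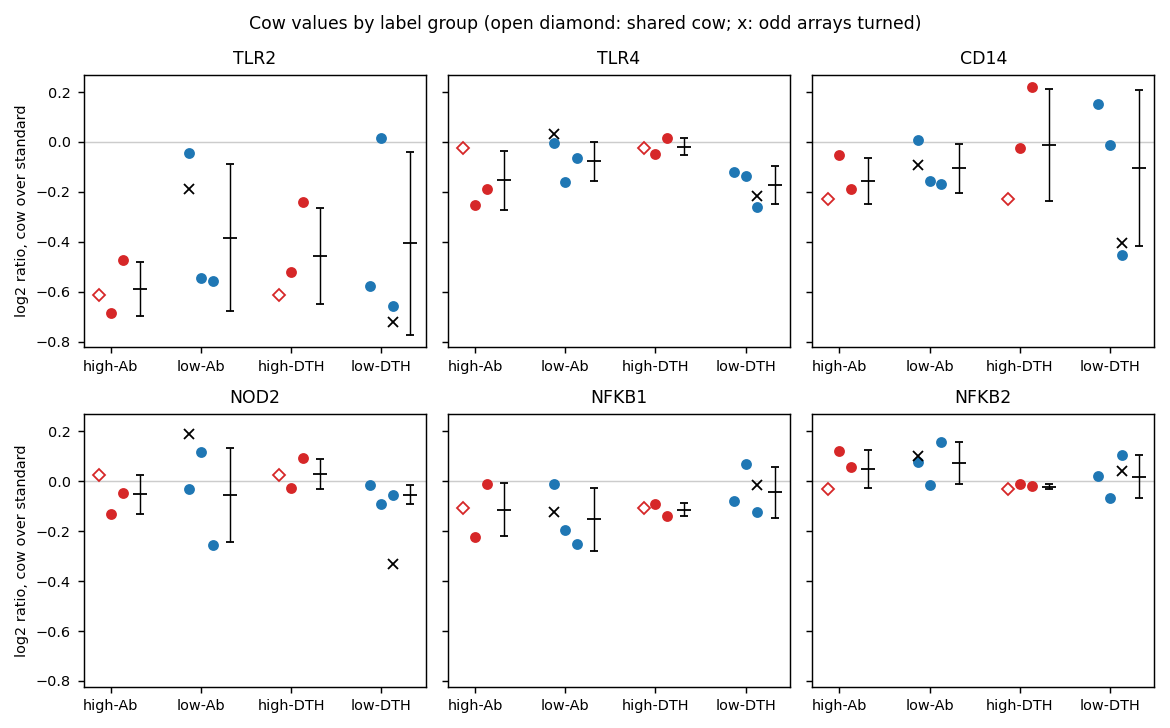
Log2 ratio of each cow (points, y axis) by label group (x axis) for the 6 genes, with the group mean and SD beside the points. The shared cow (open diamond) stands in both high groups, and crosses give low-Ab cow 1 and low-DTH cow 3 with the odd arrays turned. As deposited, the only groups of a trait that do not overlap are those of TLR4 for DTH, while with the odd arrays turned those of NFKB1 for DTH do not overlap either, and TLR2 lies below 0 in 10 of 11 cows.

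The ordering of the 4 groups was not firm for any member. TLR2 ran from low-Ab (-0.38 ± 0.29, SD, n = 3) through low-DTH (-0.41 ± 0.37) and high-DTH (-0.46 ± 0.19) to high-Ab (-0.59 ± 0.11). TLR4 ran from high-DTH (-0.02 ± 0.03) through low-Ab (-0.08 ± 0.08) and high-Ab (-0.15 ± 0.12) to low-DTH (-0.17 ± 0.08). CD14 was highest in high-DTH (-0.01 ± 0.22), with low-DTH at -0.10 ± 0.31, low-Ab at -0.11 ± 0.10 and high-Ab lowest at -0.16 ± 0.09. NOD2 was also highest in high-DTH (0.03 ± 0.06), and its other groups all had means of -0.05. NFKB1 ran from low-DTH (-0.04 ± 0.10) through high-DTH and high-Ab (both -0.11) to low-Ab (-0.15 ± 0.13). NFKB2 ran from low-Ab (0.07 ± 0.09) through high-Ab and low-DTH to high-DTH (-0.02 ± 0.01). In each order, the ranges of neighbouring groups overlapped for all 6 genes. The shared cow stands in both high groups, so their ranges overlap whatever the values. These groups were neighbours for TLR2, NOD2 and NFKB1, and only the other overlaps bear on the order.

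The first comparison asked whether the antibody response class went with different levels. None of the 6 genes passed limma's test at an adjusted p of 0.05, and neither did any of the 562 features tested (0 called, 0%), of which 37 (6.58%) had an unadjusted p under 0.05, none a member. A feature is a named gene averaged over its spots, or a single spot with no symbol or several. TLR2 had the largest difference among the members, high-Ab minus low-Ab of -0.21 ± 0.16 (SE, 95% interval -0.60 to 0.19, limma adjusted p = 0.926). Without low-Ab cow 1 the difference was -0.04 ± 0.11. The other differences were -0.08 ± 0.10 for TLR4, -0.05 ± 0.10 for CD14, 0.00 ± 0.12 for NOD2, 0.04 ± 0.11 for NFKB1 and -0.03 ± 0.10 for NFKB2. No member had groups without overlap, against 15 of 141 named genes (10.6%), 7 of them higher (4.96%) and 8 lower (5.67%) in high-Ab cows. The intervals reached from -0.32 to 0.17 for TLR4 and from -0.29 to 0.30 for NOD2, so differences of that size in either direction remain possible.

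The cell-mediated class gave the same outcome, with no member past limma's threshold and 0 of 565 features called (0%), 55 of them (9.73%) at an unadjusted p under 0.05, none a member. TLR4 was higher in high-DTH cows by 0.15 ± 0.09 (SE, 95% interval -0.05 to 0.36, 1.11-fold, limma adjusted p = 0.585). Its high and low cows did not overlap, as in 12 of 141 named genes (8.51%) that lay higher without overlap, so 1 of 6 members is near that background, while no member was among the 10 genes (7.09%) lower without overlap. In both directions together they numbered 22 (15.6%). With the odd arrays turned, NFKB1 also separated, lower in high-DTH cows (-0.14 to -0.09) than in low-DTH cows (-0.08 to 0.07), as did 17 of 141 genes (12.1%). It did so too with those arrays left out, as did 15 of 140 genes (10.7%), and without low-DTH cow 3. NOD2 separated, higher in high-DTH cows, with the median over spots, and NFKB2, lower, on arrays 1 and 2. Each also did so when certain single cows were left out. Shares over all genes were not counted for the median over spots, arrays 1 and 2 or single cows left out. The NFKB1 difference with the odd arrays turned and left out was -0.11 ± 0.07 and -0.09 ± 0.08 (limma adjusted p = 0.572 and 0.771). For TLR4 the difference with the odd arrays turned was 0.14 ± 0.07 (limma adjusted p = 0.430), and on arrays 1 and 2 alone it was 0.09 ± 0.09 and the groups overlapped. The other differences, high-DTH minus low-DTH, were -0.05 ± 0.21 for TLR2, 0.09 ± 0.19 for CD14, 0.08 ± 0.08 for NOD2, -0.07 ± 0.09 for NFKB1 and -0.04 ± 0.09 for NFKB2. For TLR2 and CD14 the sign turned when single cows were left out: TLR2 was 0.16 without low-DTH cow 2, and CD14 was -0.08 without low-DTH cow 3.

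With both traits set against each other, TLR4 had the smallest p among the members. Its Ab effect minus its DTH effect was -0.23 ± 0.11 (SE, 95% interval -0.48 to 0.02, limma adjusted p = 0.559), and it stayed between -0.30 and -0.18 when each cow was left out in turn. The remaining values were -0.16 ± 0.27 for TLR2, -0.14 ± 0.20 for CD14, -0.08 ± 0.14 for NOD2, 0.11 ± 0.14 for NFKB1 and 0.02 ± 0.11 for NFKB2. No member was among the 7 of 561 features called (1.25%), nor among the 57 (10.2%) whose unadjusted p was under 0.05. An F test over the 5 label groups called none of the members (limma adjusted p from 0.742 to 0.965) and none of 561 features (0%), 44 (7.84%) at an unadjusted p under 0.05. The median size of the members' Ab differences was 0.04, against 0.10 over all features, and that of their DTH differences was 0.08, against 0.13. Most features are single spots, whereas each member averages 8, so these sizes are not like for like.

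**Figure D3:**
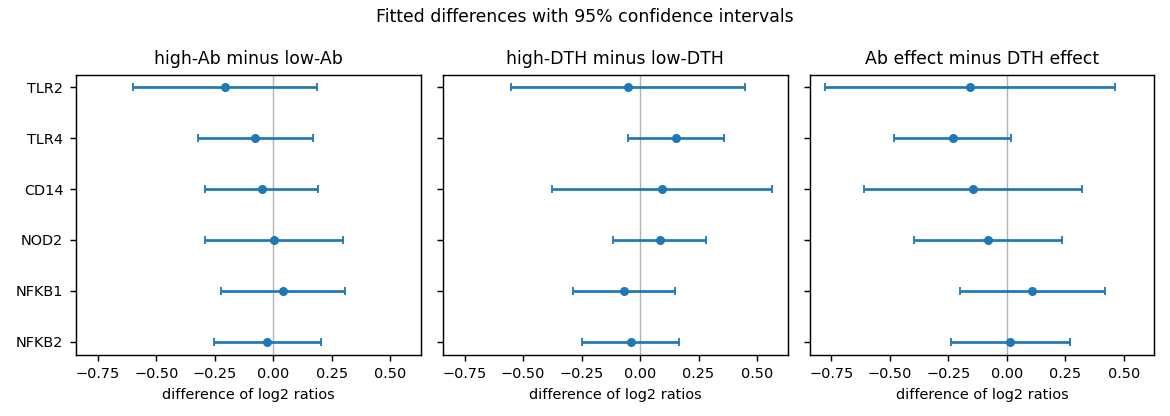
Difference of log2 ratios (x axis) for each gene with its 95% confidence interval from limma, for high-Ab minus low-Ab, high-DTH minus low-DTH and the difference of both effects. All intervals include 0, and that of TLR4 in the right panel, -0.48 to 0.02, comes closest to leaving it out.

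Signals downstream of these receptors were read from gene lists. Neither the 34 listed genes of TLR and NOD signalling, such as MYD88 and IRAK4, nor the 16 of the NF-kB complex and its regulators, such as RELA and NFKBIA, were among the named genes measured here. Of 43 listed symbols of known NF-kB targets, IL8 and CXCL8 being synonyms among them, 25 were measured. In the Ab comparison 9 of the 25 lay higher and 16 lower in high-Ab cows, and none passed limma's test. Their median was -0.03 (0.02 over all features, -0.01 over the named genes). In the DTH comparison 15 lay higher and 10 lower, with a median of 0.02 (-0.06 over all features, -0.03 over the named genes), and none passed. The target with the smallest p for Ab was IL1B, an inflammatory cytokine, at -0.87 ± 0.39 (SD, n = 3) in the high-Ab group against 0.05 ± 0.10 in the low-Ab group (limma adjusted p = 0.217), followed by IL18 (difference 0.31 ± 0.12) and the interleukin-1 antagonist IL1RN (-0.47 ± 0.19).

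For DTH the smallest p among the targets belonged to IL1A, at -0.01 ± 0.47 (SD, n = 3) in the high-DTH group against -1.03 ± 0.04 in the low-DTH group (limma adjusted p = 0.494). The chemokine CCL3 (difference 1.05 ± 0.32) and IL1B (0.72 ± 0.22) followed. IL1A and IL1B were the 2 targets that passed in the difference between the Ab and the DTH effect, where 8 of the 25 lay higher and 17 lower. That call was lost with the odd arrays turned or left out, when 0 features passed. IL1A, CCL3 and IL1B thus had larger DTH differences than any of the 6 sensing genes, although none passed within a trait. Of 10 further surface receptors that activate NF-kB 3 were measured. TNFRSF1A, the main tumour necrosis factor receptor, differed by -0.17 ± 0.15 for Ab and 0.17 ± 0.23 for DTH, the other receptor TNFRSF1B by 0.01 ± 0.09 in both, and CD40 by -0.03 ± 0.13 and -0.30 ± 0.12, none passing.

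Markers of the cell types present were read beside these values. Of 13 monocyte and macrophage markers 4 were measured, and 2 of these are TLR4 and CD14 themselves. The mean of the other pair, FCGR1A and FCER1G, lay from -0.30 to -0.14 in high-Ab, -0.09 to 0.10 in low-Ab, -0.14 to 0.33 in high-DTH and -0.35 to 0.22 in low-DTH cows. It was thus lower in all 3 high-Ab than in all 3 low-Ab cows, also with the odd arrays turned, and overlapped between the DTH groups. FCER1G alone carried that separation. It was -0.22, -0.55 and -0.36 in the high-Ab group against -0.04, 0.24 and -0.11 in low-Ab cows 1 to 3. FCGR1A overlapped, from -0.06 to 0.08 against -0.15 to 0.15, as did TLR4 and CD14. Of 141 named genes 8 (5.67%) were lower without overlap in high-Ab cows. Of 12 T cell markers 8 were measured, of which 6 were higher and 2 lower in high-Ab cows and 8 higher in high-DTH cows. Their mean lay from 0.29 to 0.63 in high-Ab against -0.03 to 0.20 in low-Ab cows, and from 0.38 to 0.63 in high-DTH against 0.02 to 0.32 in low-DTH cows, without overlap for either trait. With the odd arrays turned the low-DTH cows reached 0.46 and overlapped with the high-DTH cows, whereas the low-Ab cows, up to 0.28, did not with the high-Ab cows. The mean of the B cell markers (4 of 9 listed symbols, with IGJ and JCHAIN as synonyms) lay from -0.44 to -0.06 in high-Ab, -0.41 to 0.05 in low-Ab, -0.44 to 0.06 in high-DTH and -0.03 to 0.53 in low-DTH cows. The means of the natural killer cell pair FCGR3A and XCL1 (2 of 8) and of the neutrophil pair LTF and CXCR2 (2 of 8) overlapped between high and low cows for both traits. So did the gamma delta T cell marker CD163L1, which lay from -0.34 to 0.98 in high-Ab, -0.71 to -0.04 in low-Ab, 0.09 to 0.98 in high-DTH and -0.48 to 0.71 in low-DTH cows. It was 1 of 2 listed symbols, the other being its synonym WC1. No platelet or red cell marker (0 of 6) was measured. A ratio to a standard of the same cell type does not show whether a marker is absent, and the part of cell composition in the members' values was not tested.

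The dye that a cow's RNA carried went with larger differences in the members than either trait did, with a median size of 0.14 against the 0.04 and 0.08 above. Over all features the median size was 0.12 for dye, against 0.10 for Ab and 0.13 for DTH. The dye difference is a mean within 11 cows, whereas each trait sets 3 cows against 3, so the sizes are not like measures. TLR2 averaged -0.37 with the cow in Alexa647 and -0.52 with it in Alexa555, and it was higher in Alexa647 in 9 of 11 cows. NFKB2 averaged 0.13 in Alexa647 and -0.06 in Alexa555, also higher in 9 of 11 cows, so that its side of the standard depended on the dye. TLR4 went the other way, at -0.19 and -0.04, lower in Alexa647 in 8 of 11 cows, as did CD14, at -0.15 and -0.01, lower in 7. The dye differences were 0.20 ± 0.07 for NFKB2 (SE, limma adjusted p = 0.0810), -0.15 ± 0.06 for TLR4 (limma adjusted p = 0.116), -0.14 ± 0.06 for CD14, 0.15 ± 0.07 for TLR2, 0.09 ± 0.09 for NOD2 and 0.08 ± 0.05 for NFKB1. None passed, against 68 of 561 features (12.1%), and 3 members had an unadjusted p under 0.05, against 177 features (31.6%). With the odd arrays left out TLR2 alone of the members passed, at 0.20 ± 0.04 (limma adjusted p = 0.00637), against 22.2% of features, and so it did without low-DTH cow 3 (adjusted p = 0.00615, 23.0% of features). NFKB2 alone passed in limma after quantile normalization (adjusted p = 0.0357, 20.9% of features) and without low-DTH cow 1 (adjusted p = 0.0407, 15.2%). On arrays 1 and 2 both passed in limma (adjusted p = 0.0207 and 0.0421, 17.6% of features).

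The dye difference was not the same in all cows, a comparison added after the data were seen. The split into Ab-only and other cows was thus made with the values known, so its p-values and passes are descriptive only. The shared cow, labelled high-Ab too, stands among the other cows. In the 5 cows labelled for Ab alone, NOD2 was higher in Alexa647 by 0.67 and 0.40 in high-Ab cows 2 and 3 and by 0.15, 0.19 and 0.41 in low-Ab cows 1 to 3. In the 6 other cows the difference was -0.03 in the shared cow, -0.12 and -0.11 in high-DTH cows 2 and 3, and 0.03, 0.07 and -0.62 in low-DTH cows 1 to 3. The sets of cows did not overlap for NOD2, and the gap between their means was 0.49 ± 0.14 (SE, limma adjusted p = 0.0534, 31 of 561 features called, 5.53%). NFKB1 had a mean dye difference of 0.21 ± 0.12 (SD, n = 5) against -0.03 ± 0.07 (n = 6), also without overlap, and TLR4 one of -0.31 ± 0.14 against -0.02 ± 0.13. Of 141 named genes 5 (3.55%) were higher without overlap in the Ab-only cows and 16 (11.3%) lower. With the odd arrays turned NFKB1 overlapped, from -0.12 in an Ab-only cow to 0.02 in another cow, while NOD2 did not and was the 1 gene higher without overlap (0.709%). None of the members passed with the arrays as deposited. With the odd arrays left out, NOD2 (gap 0.48 ± 0.10, limma adjusted p = 0.00861), TLR4 (-0.30 ± 0.09, adjusted p = 0.0375) and NFKB1 (0.23 ± 0.07, adjusted p = 0.0482) passed in limma, as did 77 of 555 features (13.9%). With them turned none did and 5 of 561 features passed (0.891%). The NOD2 gap was 0.38 on arrays 1 and 2, where every member but TLR2 passed (17.6% of features), and 0.46 on arrays 3 to 5, where no member and 0 features did. These gaps are not over the same cows. Arrays 1 and 2 of low-Ab cow 1 are both odd, and low-DTH cow 3 has no Alexa647 array in the set 3 to 5 and drops out there. The NOD2 gap also passed in limma without low-DTH cow 2 or without low-DTH cow 3 (adjusted p = 0.0388 and 0.0299, with 11.1% and 10.2% of features called), as did the TLR4 gap without low-DTH cow 3 (adjusted p = 0.0300). After quantile normalization every member but TLR2 and CD14 passed (14.1% of features). Since each cow value averages both dyes, this difference between dyes is balanced within a cow, and what lies behind it was not tested.

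**Figure D4:**
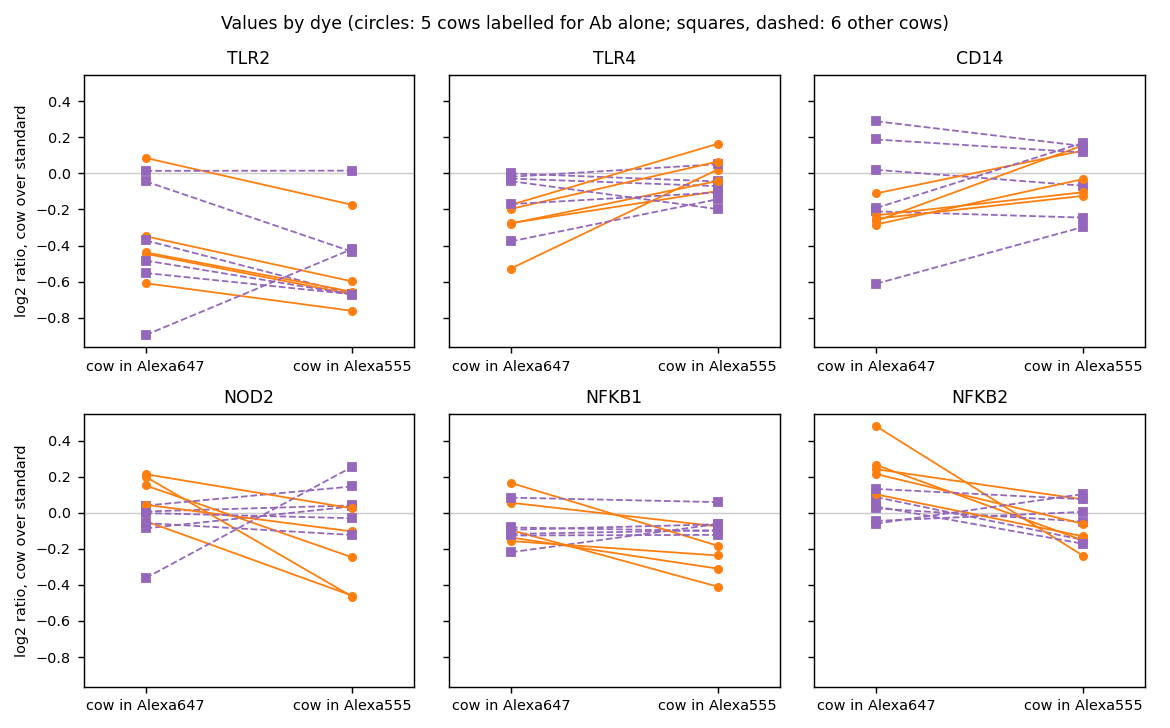
Log2 ratio of each cow (y axis) with its RNA in Alexa647 or in Alexa555 (x axis), joined by a line, for the 5 cows labelled for Ab alone (circles, solid lines) and the 6 others (squares, dashed lines). NOD2 falls from Alexa647 to Alexa555 in all 5 Ab-only cows, by 0.15 to 0.67, and TLR4 is higher in Alexa555 in all of them as deposited. The TLR4 dye difference reaches 0.01 in 1 of these cows with the odd arrays turned.

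Repeat arrays set how far a cow value can be read. The SD between arrays of the same cow was 0.29 for TLR2 and NOD2, 0.25 for NFKB2, 0.23 for CD14, 0.18 for TLR4 and 0.14 for NFKB1, against a median of 0.25 over the named genes. The intraclass correlation, which is above 0 when arrays of a cow are more alike than arrays of different cows, was 0.29 for TLR2, 0.22 for CD14 and 0.21 for NFKB1. It was -0.02 for TLR4, -0.14 for NOD2 and -0.20 for NFKB2, and the median of the named genes was 0.12. For the last 3 genes, arrays of a cow were thus no more alike than arrays of different cows. The SD and the intraclass correlation pool both dyes and hold the odd arrays, so a dye difference within a cow raises the SD and lowers the correlation. Between arrays 1 and 2 and arrays 3 to 5, the cow values correlated at 0.48 for NFKB1, 0.15 for CD14, 0.05 for TLR4, -0.04 for TLR2, -0.50 for NOD2 and -0.68 for NFKB2 (11 cows, a description, with the odd arrays in it), against a median of 0.12. In these sets, low-Ab cow 1 has only odd arrays in the first, and low-DTH cow 3 only its odd array, in Alexa555, in the second. High-DTH cow 3 shows the NOD2 pattern, with 0.51 and 0.48 on arrays 1 and 2 and -0.43 and -0.18 on arrays 3 and 4. NFKB1 was lower on arrays 3 to 5 in 9 of 11 cows and CD14 higher in 8.

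Correlations over the 11 cows are given as a description, since the values share arrays, dyes and the standard. Over all 9870 pairs of named genes the median r was 0.01 and the 95th percentile 0.64. Among the 15 pairs of members, 10 had r above 0, and TLR2 with NFKB1 (r = 0.69, rho = 0.61) was the only one past that percentile. It fell to 0.22 without low-DTH cow 2 and low-Ab cow 1, the cows farthest from the median of TLR2, and to 0.41 with the odd arrays turned. TLR4 with CD14 had r = 0.52, and 0.00 without low-DTH cow 3 and high-DTH cow 3. NFKB2 had r below 0 with all 5 other members, the lowest with NOD2 (r = -0.68). The NOD2 pair had r = -0.33 with the odd arrays turned, when the lowest was with NFKB1 (-0.57), and within each dye the NOD2 pair had 0.35 and 0.33. The sign of the NOD2 pair thus differed between the averaged values and either dye alone.

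Among the other named genes, the 3 with the highest r were taken for each member. For TLR2 these were LOC512286 (r = 0.77, but 0.15 without the 2 farthest cows), the class II antigen-loading gene BOLA-DMA (0.76) and the myeloid inhibitory receptor SIRPA (0.70, and 0.77 without the 2 farthest cows). For TLR4 they were the chemokine receptor CCR1 (0.67), IL1A (0.66) and IL10 (0.64). CCR1 had r of -0.02 and -0.39 with TLR4 within the dyes, and IL10 had 0.32 and -0.32, so those likenesses did not hold within both dyes, while IL1A had 0.58 and 0.42. CD14 was most like IL10 (0.86), GAPDH (0.81) and TNFRSF1A (0.80), but in Alexa555 IL10 had 0.08 and TNFRSF1A 0.17, against 0.76 for GAPDH. NOD2 was most like TNFRSF1A (0.63), IL10 (0.62) and the phagosomal metal transporter SLC11A1 (0.61, but 0.04 without the 2 farthest cows). NFKB1 was most like SLC11A1 (0.77), the peptide-loading gene TAPBP (0.75) and the immunoproteasome subunit PSMB9 (0.74). SLC11A1 had r of 0.75 and 0.86 with NFKB1 within the dyes. NFKB2 was most like the hormone receptor CRHR1 (0.85), the cytokine IL5 (0.83) and the growth hormone receptor GHR (0.81), of which GHR kept 0.80 and 0.74 within the dyes, CRHR1 had 0.36 and 0.38, and IL5 had 0.17 and -0.06. The r of these likenesses with the odd arrays turned ran from 0.43 (NOD2 with SLC11A1) to 0.88 (CD14 with IL10).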

How the data were processed

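The authors deposited a log ratio for every spot of every array, taken here to be log2. Array medians lay from -0.08 to 0.07, so values were centred. For the log base, direction, scanner, background correction and normalization, nothing is given in the sources used here. Arrays with opposite dyes had a mean r of 0.37 within a cow (44 pairs), so no sign was applied to swapped arrays. Of 1680 spots, 1224 carried 1 symbol, 16 several and 440 none. All 6 members matched the RefSeq gene table by Entrez identifier. Of their 2112 spot values, 8 were missing. No sequences were used here.

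Differences were tested with limma 3.58.1 (R 4.3.3, lmFit and eBayes) over all features but vapA, with p-values adjusted by the Benjamini-Hochberg method and called below 0.05. Members and lists were chosen with earlier results of these data known. The genes given with values were the members, 3 genes per member by correlation and 3 genes per pathway list and trait by p, beside the marker lists. The fit was tested on simulated data. Counts of genes without overlap, marker ranges and orders of cows with the odd arrays turned or left out were added after the data were seen. Cow numbers did not pair cows between high and low groups.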

Additional observations from a re-analysis of the deposited data

Results flagged for a closer look

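In 60 sets of 4 or 5 arrays (1 cow and 1 gene each), the gap of the highest or lowest array to its neighbour was set against the whole range with Dixon's 95% critical value, and 5 sets passed. About 1 set in 20 passes when all arrays of a set come from 1 normal distribution. The sets here share arrays between genes and mix both dyes, so 5 of 60 cannot be judged against that rate. TLR2 was 0.31 on array 3 of high-DTH cow 3, against -0.47 to -0.40 on the other arrays of that cow. TLR4 was -0.32 on array 4 of low-DTH cow 1, against -0.07 to -0.03. CD14 was 0.56 on array 4 of low-DTH cow 2, against -0.22 to -0.16. NFKB2 was -0.29 on array 2 of low-Ab cow 1, one of the odd arrays, against 0.17 to 0.24. NFKB2 was also -0.18 on array 3 of low-DTH cow 1, against 0.06 to 0.11. The causes were not tested.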

How the results depend on the processing

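No member passed the threshold within either trait, in the difference of both effects or in the F test under any alternative run. Features called in the difference of effects (7) fell to 0 with the odd arrays turned or left out, with either dye alone, after quantile normalization and within either array set, to 4 with a plain mean over arrays and to 2 with cow as a random block. The random block on arrays called 15 features for Ab, 2 for DTH and 29 in the F test. Features with a dye difference (68) numbered 38 with odd arrays turned, 123 with them left out, 117 after quantile normalization and 15 on arrays 3 to 5. For the added gap between Ab-only and other cows (31) the counts were 5, 77 and 79 in the same order, 97 on arrays 1 and 2, and 0 on arrays 3 to 5. The dye counts on arrays 3 to 5 lack low-DTH cow 3, which has no Alexa647 array there. Leaving out each cow gave 0 to 1 features for Ab, 0 for DTH, 0 to 7 for the difference of effects, 0 to 1 for F, 26 to 129 for dye and 14 to 62 for the added gap. The causes were not tested.

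Small differences changed sign. With odd arrays turned, NOD2 for Ab was -0.0703 and NFKB2 in the difference of effects -0.0137. With them left out, these were -0.0604 and -0.0267, and TLR2 for DTH was 0.0407. In Alexa647 alone, Ab values were -0.0369 for NFKB1 and 0.0911 for NFKB2, and TLR2 for DTH was 0.133. In Alexa555 alone, NOD2 for Ab was -0.0441, CD14 for DTH -0.0503, and TLR2 and NFKB2 in the difference of effects 0.0563 and -0.0742. Quantile normalization gave NOD2 for Ab -0.0135. Arrays 1 and 2 gave NFKB2 for Ab 0.0214 and TLR2 for DTH 0.0576. Low-Ab cow 1 has only odd arrays in that set. On arrays 3 to 5, low-DTH cow 3 has only its odd array, in Alexa555, so its value there is not averaged over the dyes. Arrays 3 to 5 gave Ab values of 0.118 for CD14 and -0.0397 for NOD2, DTH values of -0.0345 for CD14, -0.152 for NOD2 and 0.0304 for NFKB2, and differences of effects of 0.213 for TLR2, 0.153 for CD14, 0.112 for NOD2 and -0.102 for NFKB2.

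Leaving out 1 cow, the ranges of values that changed sign were, for Ab, -0.102 to 0.00631 for CD14, -0.0969 to 0.0892 for NOD2, -0.0123 to 0.111 for NFKB1 and -0.0689 to 0.0171 for NFKB2. For DTH they were -0.176 to 0.160 for TLR2, -0.0811 to 0.222 for CD14 and -0.0841 to 0.00177 for NFKB2. For the difference of effects they were -0.367 to 0.0124 for TLR2, -0.273 to 0.0305 for CD14, -0.181 to 0.00543 for NOD2 and -0.0284 to 0.0590 for NFKB2. TLR2's mean over cows lay between -0.52 and -0.36 in the alternatives run. TLR4 kept its sign in each comparison under the alternatives run. Cow numbers did not pair cows (r from -0.59 to -0.08), and with the number as a replicate block TLR2 for Ab remained -0.21 and TLR4 for DTH 0.15 (limma adjusted p = 0.999 and 0.912), with 0 features called in each.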
